A study of Homo sapiens with 24 samples.

Results

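Untreated SJSA-1 cells were compared with untreated U2-OS cells, using the 6 arrays that the labels assign to DMSO, 3 of each line, out of 24 arrays in all. Both are established human osteosarcoma cell lines. The study treated each line with the vehicle DMSO or with THZ2, a covalent inhibitor of the kinase CDK7, in doses of 25, 100 or 400 nM, all for 6 h. Each group has 3 arrays, and RNA was measured on Affymetrix PrimeView arrays. The compared groups were SJSA-1 with DMSO for 6 h and U2-OS with DMSO for 6 h, both grown in DMEM with fetal bovine serum. Each group is 1 line, so the comparison describes these 2 lines. The labels do not say whether the 3 arrays of a line came from separate cultures or repeat 1 culture, so the p-values measure only the spread between these arrays, which may be technical. The labels disagree on RNA extraction, with TRIzol and these cells in the treatment protocol but a kit and a different tissue in the extraction protocol. Summed intensities of nervous, blood, epithelial and endothelial markers are therefore given with the results. They cannot show by themselves whether RNA of another tissue was present.

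Osteosarcoma is a bone tumour whose cells make an osteoid matrix and often carry many chromosome gains and losses. SJSA-1 is known for extra copies of the chromosome arm 12q segment that holds MDM2, a ubiquitin ligase, and CDK4, the kinase that phosphorylates RB. U2-OS is known for maintaining its telomeres without telomerase and for a silent CDKN2A locus. Cancer-testis genes, most of them on the X chromosome, are normally read only in germ cells and are switched on in many tumours.

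Values are intensities on a linear scale after joint quantile normalization of the 6 arrays. Differences are SJSA-1 minus U2-OS on the log2 scale of intensity plus 16, which understates the change of dim genes, and their errors are standard errors from limma. Group means are given with their SD over 3 arrays per line. A gene was called where limma's Benjamini-Hochberg adjusted p was under 0.05 and the difference at least 2-fold on that scale. An intensity of 11.93, the 30th percentile, served as a floor and is no detection call. Where 1 line lay under it, the fold is given as a lower bound against it.

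The lines differed in a large part of the genes. Of 14868 genes tested, 1041 (7.0%) were called higher in SJSA-1 and 1702 (11.4%) lower, 2743 (18.4%) in all. At least 16-fold differences numbered 35 upward and 26 downward. In 60 genes U2-OS lay under the floor while SJSA-1 reached at least 10 times the floor, and in 53 genes SJSA-1 lay under the floor while U2-OS reached at least 10 times it. Of the called genes 516 had a further probe set, or several, above the floor that went the other way. Among those named here these were ABCC4, ALDH1A3, ALPL, ATRX, CDK6, CYP1B1, GATA2, GLI2, HLA-C, HOXB5, IGF2BP2, IL6, ITGAV, LOX, LRATD2, MGA, PHF20L1, PSMB9, RBPJ, SOX9, UBE3B and USP15. All tested genes with at least a 2-fold difference passed limma's adjusted p, so the fold minimum alone set which genes were called. The count of each gene list stands against these shares of 7.0% and 11.4%. Without the fold minimum 11940 genes (80.3%) passed, and the arrays of the lines did not overlap for 12256 (82.4%).

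The balance of rises and falls depended on the scaling, while no called gene was called the other way under any alternative. The middle of all tested genes lay at a log2 difference of -0.18. Rises made up 37.95% of the calls here, 29.7% on the deposited scaling, 63.2% with each array centred on its median, 12.1% with arrays centred on the ribosomal protein genes and 1.69% with arrays centred on the poly-A spike-ins. Under spike-in centring the median difference was negative in all 34 gene lists used below, so no direction given for a list holds under that setting unless it is downward. The deposited medians and rounding differ between the lines, which had been normalized apart, so line and normalization set cannot be told apart. Spike-in signals averaged 6.40, 6.90 and 7.18 on the log2 scale in the SJSA-1 arrays and 5.42 to 5.43 in the U2-OS arrays. Arrays of 1 line correlated at 0.992 to 0.996 in SJSA-1 and at 0.999 in U2-OS, and across the lines at 0.875 to 0.888. The median SD of the log2 values was 0.107 in SJSA-1 and 0.0438 in U2-OS.

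**Figure D1:**
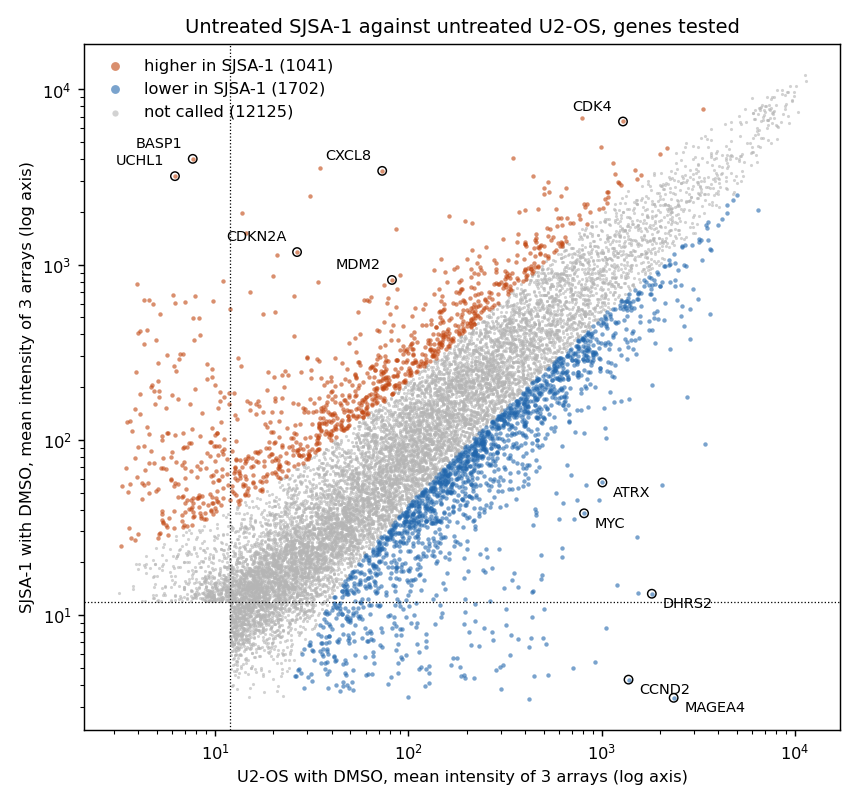
Mean intensity of each tested gene in SJSA-1 with DMSO (vertical, log axis) and U2-OS with DMSO (horizontal, log axis), 3 arrays each; dotted lines mark the floor of 11.93. The 1041 genes called higher lie above the diagonal cloud and the 1702 called lower below it, and MAGEA4 and CCND2 sit near the bottom edge while BASP1 and UCHL1 sit near the left edge.

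The 2 largest rises in SJSA-1 were those of BASP1 and UCHL1. BASP1, which encodes a membrane-attached signalling protein abundant in brain, read 4108, 4212 and 3731 in SJSA-1 and 7.08, 7.48 and 8.398 in U2-OS. Every SJSA-1 array was far above every U2-OS array, and SJSA-1 was at least 336-fold brighter (log2 difference 7.41 ± 0.089, limma adjusted p = 3.25e-13). UCHL1, a deubiquitinating enzyme abundant in neurons, read 3381, 3018 and 3203 in SJSA-1 and 6.18, 6.21 and 6.19 in U2-OS. The arrays did not overlap, and SJSA-1 was at least 268-fold brighter (log2 difference 7.18 ± 0.087). The neuropeptide genes GAL and NPY were also among the 15 largest rises. GAL, on chromosome 11, averaged 628 ± 107 in SJSA-1 and 4.29 ± 0.0821 in U2-OS, at least 52.1-fold brighter. NPY averaged 592 ± 83.4 in SJSA-1 and 4.79 ± 0.152 in U2-OS, at least 49.3-fold brighter. These genes are read in nerve cells, and markers of nervous tissue were therefore set beside them. Of 14 tested markers none was called higher in SJSA-1 and 3 were called lower. The summed intensity of the 19 on the array was 331 to 357 in the SJSA-1 arrays and 944 to 989 in the U2-OS arrays.

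The 15 largest rises also held both smooth muscle actins and several secreted proteins. The smooth muscle actin ACTA2 read 1157, 1078 and 1185 in SJSA-1 and 20.8, 21.02 and 20.9 in U2-OS, without overlap (log2 difference 4.97 ± 0.084, limma adjusted p = 1.35e-12). ACTG2, the enteric smooth muscle actin and a close relative of ACTA2, averaged 1506 ± 131 in SJSA-1 and 14.4 ± 1.21 in U2-OS. Its 5 probe sets above the floor had log2 differences from 0.35 to 6.35, and cross-hybridization between the actins was not tested. SRGN, the proteoglycan of secretory granules, averaged 1968 ± 116 in SJSA-1 and 13.8 ± 1.49 in U2-OS, a 143-fold difference. The chemokine CXCL8, which attracts neutrophils, read 3545, 3248 and 3499 in SJSA-1 and 71.1, 75.98 and 72.2 in U2-OS. Every SJSA-1 array was far above every U2-OS array (log2 difference 5.27 ± 0.083). GREM1, a secreted antagonist of bone morphogenetic proteins, averaged 670.2 ± 93.9 in SJSA-1 and 6.08 ± 0.173 in U2-OS, at least 55.8-fold brighter. CPT1A, which carries fatty acids into mitochondria, averaged 801 ± 45.5 in SJSA-1 and 10.98 ± 0.288 in U2-OS, at least 67.1-fold brighter. The tight junction gene CLDN11, the protein kinase C substrate MARCKS and the serine protease PRSS23 were each at least 52.5-fold brighter in SJSA-1, with log2 differences of 5.29, 4.96 and 4.83.

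The largest falls in SJSA-1 were those of MAGEA4 and CCND2. MAGEA4, a cancer-testis antigen on chromosome X, read 3.48, 3.31 and 3.31 in SJSA-1 and 2314, 2487 and 2266 in U2-OS. All SJSA-1 arrays lay under the floor, and U2-OS was at least 197-fold brighter (log2 difference -6.94 ± 0.085, limma adjusted p = 3.25e-13). CCND2, which encodes cyclin D2, read 4.27, 4.31 and 4.25 in SJSA-1 and 1355, 1420 and 1352 in U2-OS. SJSA-1 again lay under the floor in every array, and U2-OS was at least 115-fold brighter (log2 difference -6.10 ± 0.080, limma adjusted p = 5.62e-13). DHRS2, a short-chain dehydrogenase, averaged 13.2 ± 0.3596 in SJSA-1 and 1816 ± 42.9 in U2-OS, a 137-fold difference. HAPLN1, which links hyaluronan to proteoglycans in cartilage, averaged 8.37 ± 0.556 in SJSA-1 and 1058 ± 24.4 in U2-OS. The microfibril gene MFAP5 averaged 5.005 ± 0.551 in SJSA-1 and 710.0 ± 5.22 in U2-OS. SUN3, a nuclear envelope protein of spermatids, averaged 5.38 ± 0.363 in SJSA-1 and 922 ± 31.8 in U2-OS. GTSF1, a factor of the germ-line piRNA pathway, averaged 14.9 ± 0.448 in SJSA-1 and 1195 ± 23.9 in U2-OS. The presynaptic scaffold gene PCLO averaged 94.2 ± 9.46 in SJSA-1 and 3429 ± 118 in U2-OS and was well above the floor in both lines. NEFL, the light neurofilament subunit and a nervous tissue marker, averaged 3.32 ± 0.2303 in SJSA-1 and 422 ± 22.6 in U2-OS. The remaining falls were in MYEOV, TUBA3C, SFN, MAGEA1, MAGEB2 and TSPYL5, with log2 differences between -5.73 and -4.49.

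**Figure D2:**
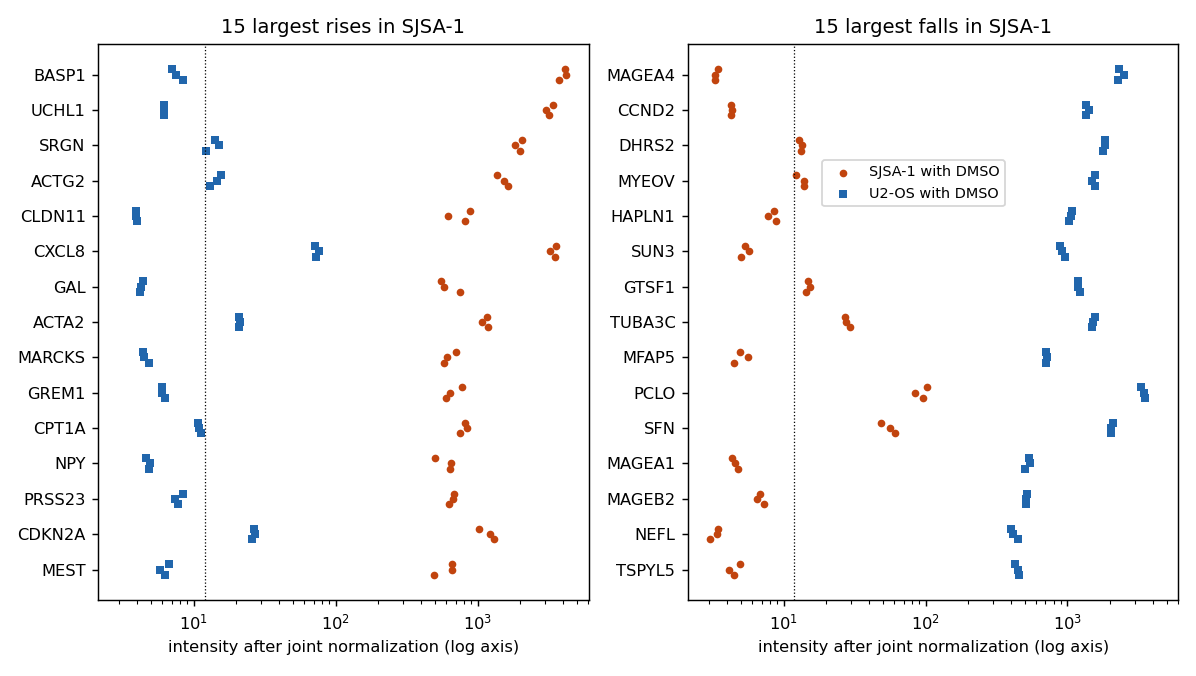
Intensity (horizontal, log axis) in each of the 3 SJSA-1 and 3 U2-OS arrays with DMSO for the 15 largest rises (left) and the 15 largest falls (right); the dotted line is the floor of 11.93. In all 30 genes the arrays of the lines are apart, and BASP1 and MAGEA4 have the widest gaps.

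The promoters of the extreme genes are shown because cancer-testis genes are known to be silenced by methylation of CpG sites near their starts. Methylation was not measured here, and the base composition is a description. Each is 300 bases long, 250 before and 50 after the start in the RefSeq table of GRCh38.p14, read 5′ to 3′ on the plus strand, with each CG in capitals. The first 3 belong to X-linked antigens lower in SJSA-1 and the last 2 to the largest rises. They are MAGEA4 at chrX:151912224-151912523, MAGEB2 at chrX:30215313-30215612, MAGEC1 at chrX:141903644-141903943, BASP1 at chr5:17216573-17216872 and UCHL1 at chr4:41256678-41256977.
MAGEA4: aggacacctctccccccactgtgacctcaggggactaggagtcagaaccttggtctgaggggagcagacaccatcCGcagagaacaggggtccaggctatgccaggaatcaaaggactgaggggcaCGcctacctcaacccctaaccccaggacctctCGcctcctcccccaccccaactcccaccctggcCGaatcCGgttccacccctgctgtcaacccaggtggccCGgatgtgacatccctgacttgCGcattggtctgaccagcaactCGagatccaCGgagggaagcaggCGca
MAGEB2: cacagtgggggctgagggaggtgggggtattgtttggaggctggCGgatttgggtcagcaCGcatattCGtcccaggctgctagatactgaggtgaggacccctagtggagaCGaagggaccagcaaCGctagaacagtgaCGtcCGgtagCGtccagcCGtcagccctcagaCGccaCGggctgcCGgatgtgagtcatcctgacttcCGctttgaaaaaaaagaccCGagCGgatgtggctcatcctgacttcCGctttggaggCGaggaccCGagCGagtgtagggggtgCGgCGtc
MAGEC1: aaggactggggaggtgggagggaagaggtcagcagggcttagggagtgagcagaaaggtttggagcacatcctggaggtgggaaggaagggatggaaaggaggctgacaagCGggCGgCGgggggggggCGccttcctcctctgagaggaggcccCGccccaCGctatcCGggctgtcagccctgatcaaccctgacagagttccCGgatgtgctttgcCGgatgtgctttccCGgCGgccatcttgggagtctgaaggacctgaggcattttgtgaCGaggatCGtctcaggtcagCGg
BASP1: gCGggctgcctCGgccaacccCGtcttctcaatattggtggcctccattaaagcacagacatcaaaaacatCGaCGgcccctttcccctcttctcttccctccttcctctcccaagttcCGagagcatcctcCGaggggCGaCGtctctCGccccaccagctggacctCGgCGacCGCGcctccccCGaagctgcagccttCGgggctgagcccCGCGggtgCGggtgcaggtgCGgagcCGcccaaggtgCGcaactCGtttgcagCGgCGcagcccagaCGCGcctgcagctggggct
UCHL1: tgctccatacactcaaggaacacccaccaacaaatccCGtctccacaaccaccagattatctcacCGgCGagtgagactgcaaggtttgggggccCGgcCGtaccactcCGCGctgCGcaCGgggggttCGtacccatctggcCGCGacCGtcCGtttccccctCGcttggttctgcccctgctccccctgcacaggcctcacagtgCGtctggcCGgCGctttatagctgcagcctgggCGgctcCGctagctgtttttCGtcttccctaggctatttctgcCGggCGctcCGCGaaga
The dinucleotide CG occurred 10 times in the MAGEA4 promoter, 21 times in that of MAGEB2, 14 times in that of MAGEC1, 27 times in that of BASP1 and 25 times in that of UCHL1. The median over 35116 RefSeq promoters of this length was 14. At least as many were held by 56.4% of all promoters for MAGEA4, 39.5% for MAGEB2, 50.3% for MAGEC1, 28.2% for BASP1 and 32.03% for UCHL1.

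The tested cancer-testis genes were largely lower in SJSA-1. Of 50 on the array 20 lay under the floor in both lines, and of the 30 tested 18 were called lower and 1 higher, with a median log2 difference of -1.31, against -0.18 over all genes. Beside MAGEA4, MAGEA1 read 4.37, 4.54 and 4.76 in SJSA-1 and 535, 544 and 505 in U2-OS, with U2-OS at least 44.2-fold brighter. MAGEB2 averaged 6.87 ± 0.3795 in SJSA-1 and 514 ± 2.46 in U2-OS, and MAGEC1 7.43 ± 0.0479 in SJSA-1 and 499.5 ± 4.27 in U2-OS. MAGEA8 averaged 7.36 ± 0.172 in SJSA-1 and 432 ± 1.37 in U2-OS, with U2-OS at least 36.2-fold brighter. MAGEA11, which is known to bind the androgen receptor, averaged 4.84 ± 0.177 in SJSA-1 and 283 ± 14.4 in U2-OS. The only rise was MAGEC2, which read 59.2, 62.8 and 64.1 in SJSA-1 and 10.8, 11.6 and 10.1 in U2-OS, at least 5.196-fold brighter in SJSA-1. The falls also held KIF20B, NUF2, PBK, TTK and CEP55, which act in mitosis in other cells too and were named after their values were seen. MAGEA genes are close relatives, and cross-hybridization between their probe sets was not tested. The filter kept genes that reached the floor in either line, so antigens under the floor in SJSA-1 were tested only through U2-OS. Without the filter the median of the list was -0.35, against -0.09 over all genes, and again 18 were called lower and 1 higher. With the filter the median stayed negative under the 4 other scalings, between -0.88 and -1.89. The median over all genes was negative under these too, between -0.06 and -1.23, so the sign alone does not set the list apart.

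Imprinted genes, read from 1 parental copy only, moved both ways. Of 18 tested 3 were called higher and 6 lower. The rises were MEST, TFPI2 and PEG10, all on chromosome 7. MEST, a hydrolase-like gene, read 663, 663 and 492 in SJSA-1 and 6.72, 5.74 and 6.23 in U2-OS (log2 difference 4.79 ± 0.112). TFPI2, an inhibitor of serine proteases in the matrix, averaged 522 ± 44.4 in SJSA-1 and 5.204 ± 0.0864 in U2-OS. PEG10, derived from a retrotransposon, averaged 373 ± 85.7 in SJSA-1 and 4.91 ± 0.392 in U2-OS. In all 3 the U2-OS arrays lay under the floor. Among the falls PEG3, a zinc finger gene, averaged 4.34 ± 0.638 in SJSA-1 and 196 ± 4.44 in U2-OS, and PLAGL1, a zinc finger gene with growth-restraining activity, averaged 35.4 ± 5.64 in SJSA-1 and 599 ± 30.7 in U2-OS. NDN, MAGEL2 and MKRN3, neighbours on chromosome 15, were all lower, with log2 differences of -1.11, -1.34 and -1.74.

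The strongest chromosomal cluster of rises lay on chromosome 12q. Between INHBE and AVPR1A 31 neighbouring genes were tested, of which 18 were called higher and 1 lower, with a median log2 difference of 1.54. Of the genes tested over all chromosomes 7.0% were called higher. The ends of the cluster were set from these same differences, by windows of 11 neighbouring genes with a median of at least 2-fold. Its high share of rises therefore follows in part from that choice. CDK4, the kinase partner of the D cyclins, read 6122, 6693 and 6879 in SJSA-1 and 1294, 1276 and 1293 in U2-OS. Its arrays did not overlap (log2 difference 2.33 ± 0.058, limma adjusted p = 1.72e-11). The dynactin subunit DCTN2 had the largest difference of the cluster and read 3951, 4078 and 4081 in SJSA-1 and 353, 346 and 337 in U2-OS (log2 difference 3.49 ± 0.067). METTL1, a tRNA methyltransferase, averaged 1779 ± 229 in SJSA-1 and 196 ± 2.93 in U2-OS. MARS1, the methionyl-tRNA synthetase, averaged 3204 ± 252 in SJSA-1 and 439.8 ± 2.903 in U2-OS. B4GALNT1, which makes complex gangliosides, averaged 616 ± 64.8 in SJSA-1 and 62.5 ± 1.66 in U2-OS. TSFM, a mitochondrial translation factor, averaged 2721 ± 131 in SJSA-1 and 505 ± 7.897 in U2-OS. Not all genes between INHBE and AVPR1A were higher. The hedgehog transcription factor GLI1 averaged 9.21 ± 0.705 in SJSA-1 and 28.4 ± 2.88 in U2-OS and was not called (log2 difference -0.81 ± 0.052). The deubiquitinase USP15 averaged 46.3 ± 5.73 in SJSA-1 and 213 ± 4.01 in U2-OS and was the called fall.

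MDM2 stood apart from its own neighbours. It read 1012, 710.1 and 730.5 in SJSA-1 and 83.4, 78.8 and 84.2 in U2-OS. The arrays did not overlap (log2 difference 3.07 ± 0.127, limma adjusted p = 1.33e-09), and all of its 11 probe sets above the floor were higher in SJSA-1. In the 33 tested genes that follow AVPR1A up to PTPRR, 5 were called lower and the median was -0.11. Only MDM2 and IRAK3, a regulator of interleukin signalling, were called higher there. The border at AVPR1A was set by these same differences, so the contrast between the stretches follows in part from that choice. The 2 tested genes on each side of MDM2 had log2 differences between -0.78 and 0.26, and none was called. HMGA2, an architectural chromatin protein of the same interval, averaged 185 ± 23.1 in SJSA-1 and 102 ± 1.19 in U2-OS and was not called (log2 difference 0.76 ± 0.096). DNA copy number was not measured, and its part in these differences was not tested.

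**Figure D3:**
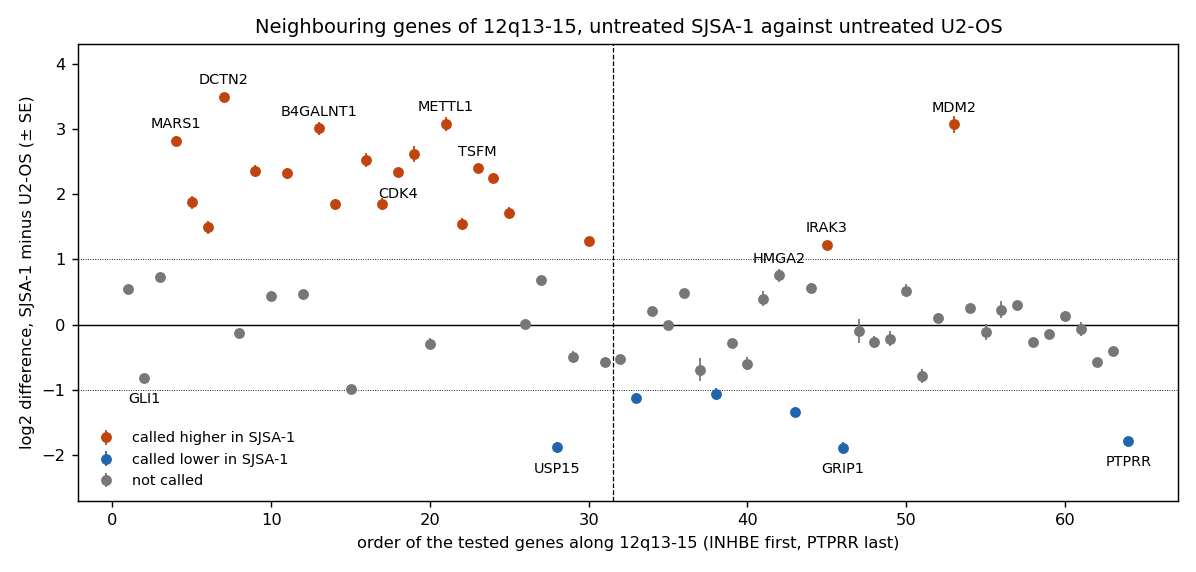
Log2 difference, SJSA-1 minus U2-OS with DMSO (vertical, ± SE over 3 arrays per line), of 64 tested genes in their order along 12q13-15 (horizontal, order only); dotted lines mark 2-fold and the dashed line the end of the 31-gene cluster at AVPR1A. Rises crowd left of the dashed line, while MDM2 at 3.07 and IRAK3 at 1.22 are the only called rises right of it.

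The cell cycle brakes and motors of the RB pathway were set differently in the lines. CDKN2A, which encodes the CDK4 and CDK6 inhibitor p16 and the MDM2 inhibitor ARF, read 1017, 1229 and 1295 in SJSA-1 and 26.6, 27.1 and 25.9 in U2-OS. The arrays did not overlap (log2 difference 4.81 ± 0.103, limma adjusted p = 5.11e-12). MTAP, the methionine salvage gene beside CDKN2A on chromosome 9, went the other way and averaged 38.7 ± 1.04 in SJSA-1 and 152 ± 7.45 in U2-OS. The D cyclins were split between the lines: beside the fall of CCND2, CCND1 averaged 1304 ± 164 in SJSA-1 and 626 ± 12.3 in U2-OS (log2 difference 1.03 ± 0.096), a difference that lay under 2-fold, at 0.98 and 0.97, without the SJSA-1 array of replicate 1 or 2. CDK6, the relative of CDK4, averaged 258 ± 53.2 in SJSA-1 and 978 ± 12.01 in U2-OS. CCNE1, cyclin E1, averaged 281 ± 13.4 in SJSA-1 and 754 ± 12.2 in U2-OS. SKP2, which targets p27 for degradation, averaged 181 ± 7.498 in SJSA-1 and 45.4 ± 2.64 in U2-OS, and E2F5, a repressive E2F, 190.5 ± 21.6 in SJSA-1 and 40.3 ± 3.21 in U2-OS. CDKN1A, the CDK inhibitor p21, read 540.2, 746 and 696 in SJSA-1 and 803, 731 and 745 in U2-OS. The ranges of the lines overlapped, and CDKN1A was not called (log2 difference -0.21 ± 0.114, limma adjusted p = 0.111). RB1 itself averaged 45.95 ± 11.4 in SJSA-1 and 71.8 ± 11.2 in U2-OS and was not called, and 2 of its 3 probe sets above the floor differed in the other direction. In the cyclin D and RB list 5 of 28 members were called higher and 4 lower, 32.1% in all.

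MYC was low in SJSA-1. It read 33.4, 41.2 and 39.6 in SJSA-1 and 826, 847 and 758 in U2-OS. All SJSA-1 arrays were far below all U2-OS arrays (log2 difference -3.94 ± 0.094, limma adjusted p = 1.28e-11), with 1 probe set above the floor. MYC lies in a chromosome 8 stretch of 12 neighbouring genes, LRATD2 to PHF20L1. The stretch was picked by these same differences, and 7 of its genes were called lower and none higher. In the MYC, MAX and MXD network of 13 genes the antagonist MXI1 averaged 177 ± 9.86 in SJSA-1 and 471 ± 9.77 in U2-OS, and MGA, a MAX partner, 63.6 ± 5.32 in SJSA-1 and 150.1 ± 9.002 in U2-OS. These were the only calls beside MYC. Of 46 DNA replication genes 5 were called lower and none higher, 10.9% against 11.4% lower over all genes, and with median-centred arrays 1 was lower and 4 were higher. The primase subunit PRIM1 averaged 278 ± 7.56 in SJSA-1 and 892 ± 10.2 in U2-OS, and POLE2, a subunit of DNA polymerase epsilon, 184 ± 25.02 in SJSA-1 and 478 ± 10.8 in U2-OS. Mitotic genes were called lower in 8 and higher in 3 of 33 (33.3%, against 18.4% over all genes): the kinetochore gene CENPF averaged 109 ± 4.35 in SJSA-1 and 470.2 ± 53.02 in U2-OS, the topoisomerase TOP2A 928 ± 230.2 in SJSA-1 and 2490 ± 56.5 in U2-OS, and the kinase AURKA 1923 ± 186 in SJSA-1 and 759.9 ± 2.54 in U2-OS. With median-centred arrays the split of the mitotic list was 6 higher and 3 lower.

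Among telomere genes ATRX had the largest difference. ATRX, a chromatin remodeller often lost in tumours that maintain telomeres without telomerase, read 69.3, 44.2 and 57.7 in SJSA-1 and 984, 1052 and 988 in U2-OS. All SJSA-1 arrays were below all U2-OS arrays (log2 difference -3.82 ± 0.121, limma adjusted p = 1.37e-10). Its probe sets disagreed: 4 of 5 above the floor were lower in SJSA-1, and the fifth averaged 31.2 in SJSA-1 and 3.61 in U2-OS. TERT, the catalytic subunit of telomerase, averaged 48.7 ± 4.45 in SJSA-1 and 36.1 ± 3.28 in U2-OS and was not called (log2 difference 0.31 ± 0.073). DKC1, which stabilizes telomerase RNA, averaged 1270 ± 113 in SJSA-1 and 2606 ± 37.7 in U2-OS, and its log2 difference lay under 2-fold, at -0.94, without the SJSA-1 array of replicate 3. FANCM, a DNA translocase of the Fanconi pathway, averaged 7.09 ± 0.632 in SJSA-1 and 52.0 ± 5.296 in U2-OS. ASF1B, a histone chaperone, was higher in SJSA-1 (342 in SJSA-1 and 101 in U2-OS) while its relative ASF1A was lower (199.5 in SJSA-1 and 492 in U2-OS). Of 24 tested members 2 were called higher and 5 lower (29.2%, against 18.4% over all genes), which turned to 5 higher and 2 lower with median-centred arrays.

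Genes of bone and of mesenchymal cells were rearranged and not uniformly higher in either line. In the osteoblast list 7 of 35 genes were called higher in SJSA-1 and 5 lower, 34.3% against 18.4% over all genes, with a median of -0.25 against -0.18. RUNX2, the master regulator of the osteoblast lineage, averaged 109.5 ± 14.2 in SJSA-1 and 149 ± 9.86 in U2-OS and was not called (log2 difference -0.40 ± 0.0999). The 2 chains of type I collagen went opposite ways. COL1A2 read 293, 343 and 292 in SJSA-1 and 6.63, 6.93 and 6.78 in U2-OS, with SJSA-1 at least 25.9-fold brighter. COL1A1 read 163, 198 and 188 in SJSA-1 and 443, 422 and 395 in U2-OS, lower in SJSA-1 (log2 difference -1.14 ± 0.098). SPP1, osteopontin, read 15.2, 13.5 and 12.5 in SJSA-1 and 422, 459 and 442 in U2-OS, a 32.2-fold fall. ALPL, the phosphatase needed for mineralization, averaged 26.6 ± 3.15 in SJSA-1 and 90.4 ± 7.65 in U2-OS, and the vitamin D receptor VDR 50.04 ± 3.53 in SJSA-1 and 166 ± 7.58 in U2-OS. DKK1, a Wnt antagonist made by osteoblasts, averaged 493 ± 10.6 in SJSA-1 and 8.27 ± 0.322 in U2-OS, at least 41.3-fold brighter in SJSA-1. The transcription factors TWIST1 and TWIST2, which restrain osteoblast maturation, were higher, at 216 in SJSA-1 and 5.08 in U2-OS for TWIST1 and 292 in SJSA-1 and 29.8 in U2-OS for TWIST2. SOX9, the cartilage regulator, averaged 111 ± 4.87 in SJSA-1 and 375 ± 4.001 in U2-OS.

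Matrix genes followed the same divided pattern. Among 44 collagens and their modifying enzymes 10 were called higher and 6 lower. COL5A2 averaged 1072 ± 192 in SJSA-1 and 148 ± 2.63 in U2-OS, and COL3A1 1116 ± 96.4 in SJSA-1 and 231 ± 4.495 in U2-OS, both fibril-forming chains. COL6A3, a chain of the beaded filament collagen, averaged 486 ± 34.5 in SJSA-1 and 2097 ± 19.1 in U2-OS, lower in SJSA-1. LOX, which cross-links collagen, was higher (527 in SJSA-1 and 217 in U2-OS), while its relative LOXL4 was lower (11.6 in SJSA-1 and 222 in U2-OS). Of 38 matrix proteases and their inhibitors 5 were called higher and 7 lower. The collagenase MMP1 averaged 160.4 ± 6.42 in SJSA-1 and 7.39 ± 0.0455 in U2-OS, the gelatinase MMP9 16.2 ± 0.924 in SJSA-1 and 194 ± 8.25 in U2-OS and the stromelysin MMP3 67.9 ± 2.65 in SJSA-1 and 315 ± 7.496 in U2-OS. The inhibitors counted among them were split as well. TIMP3 lay at 627 in SJSA-1 and 192 in U2-OS, and TIMP1 at 2061 in SJSA-1 and 6401 in U2-OS.

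Adhesion genes and mesenchymal markers also separated the lines. The intercellular adhesion receptor ICAM1 averaged 389 ± 81.1 in SJSA-1 and 25.5 ± 0.113 in U2-OS. CD24, a surface glycoprotein, averaged 175 ± 23.3 in SJSA-1 and 5.101 ± 0.273 in U2-OS, at least 14.6-fold brighter in SJSA-1. ALCAM, an activated leukocyte adhesion molecule, averaged 449 ± 69.95 in SJSA-1 and 2675 ± 68.4 in U2-OS, lower in all 8 of its probe sets. The integrin subunits ITGB8, ITGB5 and ITGAV were lower, with log2 differences between -1.69 and -1.60, and ITGB3 was higher (1.61). Of 16 mesenchymal markers 7 were called higher and 3 lower. NT5E, the ectonucleotidase CD73, averaged 149 ± 31.8 in SJSA-1 and 3.86 ± 0.0531 in U2-OS, and THY1, the surface antigen CD90, 38.6 ± 7.39 in SJSA-1 and 456 ± 22.2 in U2-OS. The repressors ZEB1 and ZEB2 of epithelial genes went opposite ways: ZEB1 averaged 78.4 ± 17.8 in SJSA-1 and 270.0 ± 10.5 in U2-OS, and ZEB2 56.3 ± 16.8 in SJSA-1 and 4.201 ± 0.132 in U2-OS. Among 17 epithelial markers CLDN4 was the only call, and it was lower. No endothelial marker of 10 reached 2-fold, so none was called. In limma 9 of them passed an unadjusted p of 0.05, and without the fold minimum 4 were called higher and 5 lower. Of 15 blood markers CD14 alone was called, at 37.6 in SJSA-1 and 9.696 in U2-OS. Without the SJSA-1 array of replicate 3 the difference of CD14 was 0.998 on the log2 scale and missed 2-fold. The 19 epithelial markers on the array summed to 3616 to 4695 in the SJSA-1 arrays and 3493 to 3696 in the U2-OS arrays. For the 12 endothelial markers the sums were 246.3 to 247.6 in SJSA-1 and 366.3 to 381.6 in U2-OS. For the 18 blood markers they were 377.6 to 408.4 in SJSA-1 and 478.5 to 505.7 in U2-OS.

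Developmental transcription factors were more often higher than lower in SJSA-1. Of 58 tested 14 were called higher (29.3% called in either direction, against 18.4% over all genes) and 3 lower. ZIC2, a factor of the early nervous system, read 600.5, 651 and 603 in SJSA-1 and 9.13, 9.58 and 10.5 in U2-OS, at least 51.8-fold brighter. Its chromosome 13 neighbour ZIC5 averaged 161 ± 14.7 in SJSA-1 and 4.896 ± 0.264 in U2-OS. GATA2, a factor of blood and endothelial progenitors, averaged 555 ± 55.1 in SJSA-1 and 11.96 ± 1.12 in U2-OS. TFAP2C, a factor of trophoblast and germ cells, averaged 199 ± 8.42 in SJSA-1 and 4.67 ± 0.123 in U2-OS, the homeobox factor DLX2 153 ± 18.9 in SJSA-1 and 5.59 ± 0.621 in U2-OS, and the eye and brain regulator PAX6 159.5 ± 17.1 in SJSA-1 and 11.8 ± 0.212 in U2-OS. FOXD1, a forkhead factor of the kidney stroma, averaged 636 ± 49.4 in SJSA-1 and 3157 ± 63.1 in U2-OS, lower in SJSA-1. Of 25 HOX genes tested 4 were called higher and 2 lower (24% called, against 18.4% over all genes), with a median of -0.06. The rises were all HOXB genes. HOXB2 averaged 372 ± 35.7 in SJSA-1 and 7.798 ± 0.367 in U2-OS, and HOXB4 249 ± 43.8 in SJSA-1 and 31.3 ± 1.87 in U2-OS. HOXB6 averaged 205 ± 21.3 in SJSA-1 and 51.2 ± 4.13 in U2-OS, and HOXB5 58.5 ± 6.48 in SJSA-1 and 18.3 ± 1.38 in U2-OS. HOXC8 and HOXD8 were lower, with log2 differences of -1.12 and -1.09. The developmental list held 13 rises and 4 falls on the deposited scaling, 11 and 10 with ribosomal protein centring, and 9 and 31 with spike-in centring.

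Cytokine genes were more often higher than lower in SJSA-1. Of 32 cytokines and chemokines 11 were called higher and 2 lower, with a median of 0.56, but 7 and 7 with ribosomal protein centring and 7 and 12 with spike-in centring. Beside CXCL8, the neutrophil chemokine CXCL5 read 506, 339.9 and 369 in SJSA-1 and 3.797, 4.27 and 3.92 in U2-OS, at least 33.4-fold brighter. Its relatives CXCL1 and CXCL2 averaged 727 in SJSA-1 and 86.97 in U2-OS for CXCL1 and 229 in SJSA-1 and 9.59 in U2-OS for CXCL2. CXCL1 and CXCL2 are close relatives, and cross-hybridization was not tested. The inflammatory cytokines IL1B and IL6 averaged 233 in SJSA-1 and 23.7 in U2-OS for IL1B and 97.2 in SJSA-1 and 9.39 in U2-OS for IL6. IL18 and CCL20 were the falls. IL18, an inflammasome cytokine, read 57.6, 46.5 and 60.7 in SJSA-1 and 789, 869 and 819 in U2-OS, and CCL20, a chemokine for lymphocytes and dendritic cells, averaged 18.5 ± 2.49 in SJSA-1 and 269 ± 5.96 in U2-OS.

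The HLA class I and interferon list held rises and no called fall. Of 42 tested genes 15 were called higher and 0 lower, with a median of 0.71, against -0.18 over all genes, and 7 were lower at an unadjusted p of 0.05 in limma. The ubiquitin-like ISG15 read 478, 535 and 677 in SJSA-1 and 107, 107 and 111 in U2-OS. MX1, an antiviral GTPase, averaged 84.9 ± 5.96 in SJSA-1 and 5.99 ± 0.0129 in U2-OS, at least 7.11-fold brighter. IFI35 averaged 166 ± 28.1 in SJSA-1 and 16.6 ± 0.854 in U2-OS, IFITM1, which blocks virus entry, 255 ± 38.02 in SJSA-1 and 48.4 ± 1.498 in U2-OS, and PSMB9, an immunoproteasome subunit, 446 ± 67.5 in SJSA-1 and 94.1 ± 5.12 in U2-OS. IFI27 averaged 159.7 ± 29.4 in SJSA-1 and 26.8 ± 0.951 in U2-OS. The list kept 15 rises and no fall on the deposited scaling, and had 11 and 3 with ribosomal protein centring and 2 and 11 with spike-in centring.

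**Figure D4:**
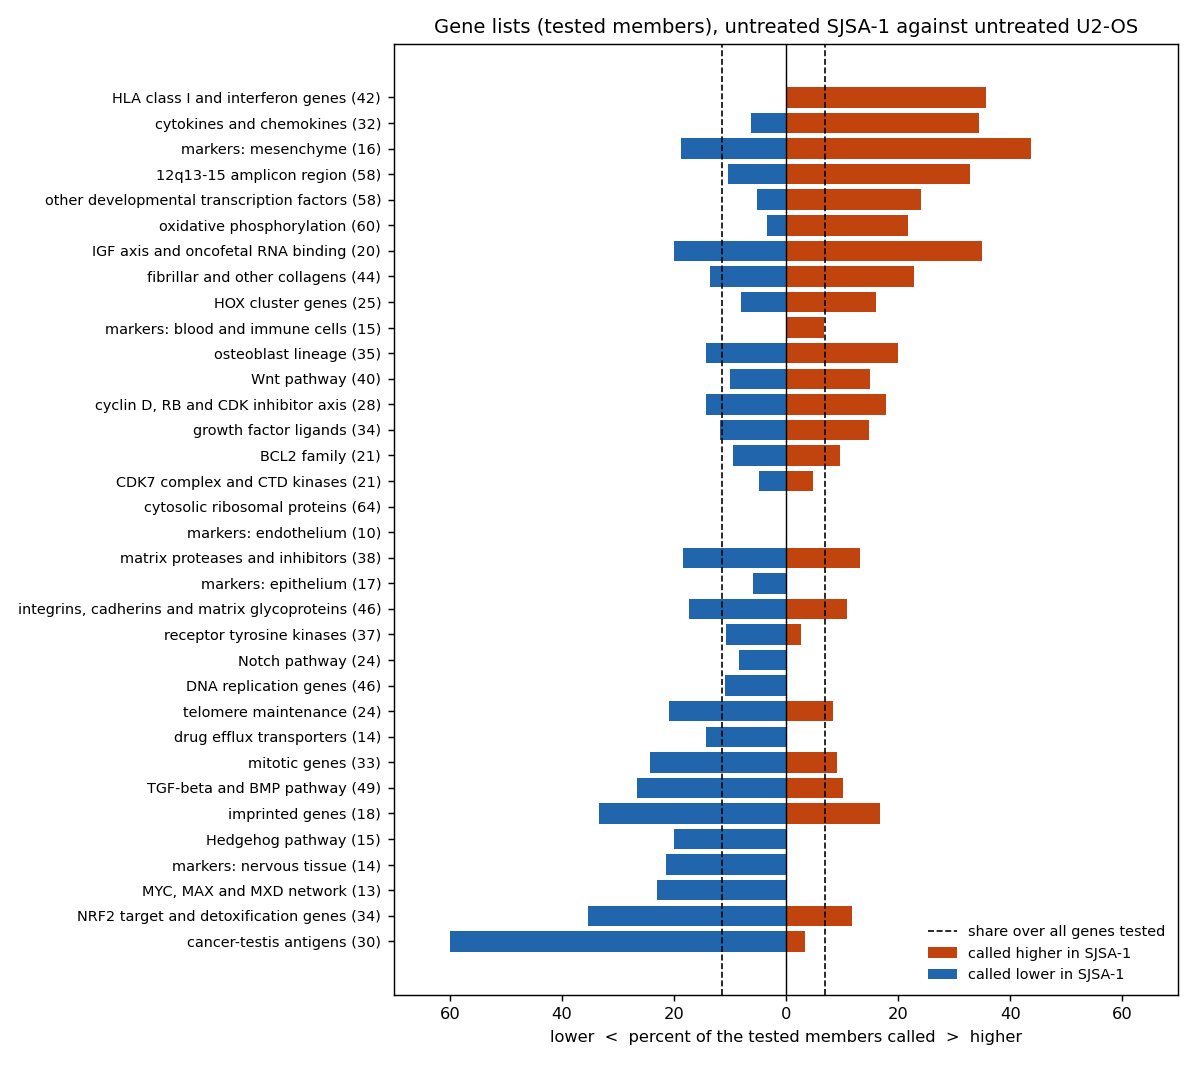
Percent of the tested members of each of 34 lists called higher (right) or lower (left) in SJSA-1 against U2-OS with DMSO, number tested in brackets; dashed lines mark 7.0% and 11.4% over all genes. The HLA and interferon list and the cytokine list lie at the top with mostly rises, which turned to mostly falls with spike-in centring, and the cancer-testis list lies at the bottom with mostly falls.

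A list that joins the insulin-like growth factor axis with oncofetal RNA-binding genes was often called. Of its 20 tested genes 55.0% were called, against 18.4% over all genes, 7 higher and 4 lower. The oncofetal RNA-binding protein IGF2BP1 read 273, 333 and 279 in SJSA-1 and 13.3, 12.7 and 13.4 in U2-OS. Its relative IGF2BP2 was lower (417 in SJSA-1 and 1456 in U2-OS). The binding protein IGFBP5 averaged 4.11 ± 0.289 in SJSA-1 and 128 ± 6.32 in U2-OS, lower in SJSA-1, whereas IGFBP2 averaged 109.8 ± 20.8 in SJSA-1 and 5.71 ± 0.505 in U2-OS. The receptor adaptors went opposite ways: IRS1 averaged 66.1 ± 8.47 in SJSA-1 and 457 ± 14.9 in U2-OS, and IRS2 100.5 ± 9.78 in SJSA-1 and 11.1 ± 0.659 in U2-OS. Of 37 receptor tyrosine kinases 1 was called higher and 4 lower (13.5%, against 18.4% over all genes). The rise was EGFR, at 85.6 ± 15.4 in SJSA-1 and 26.4 ± 1.72 in U2-OS. Among the falls FGFR4 averaged 36.7 ± 3.21 in SJSA-1 and 114 ± 4.74 in U2-OS. Among ligands EFNB2, an ephrin, averaged 253 ± 16.9 in SJSA-1 and 9.59 ± 0.821 in U2-OS, at least 21.2-fold brighter, and MDK, the heparin-binding growth factor midkine, averaged 178 ± 15.5 in SJSA-1 and 638 ± 26.8 in U2-OS.

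The transforming growth factor beta and bone morphogenetic protein list held more falls than rises, as did all genes. Of 49 genes 5 were called higher and 13 lower, against 7.0% higher and 11.4% lower over all genes. The list was called in 36.7%, against 18.4% over all genes. PMEPA1, a feedback inhibitor induced by the pathway, read 199, 225 and 194 in SJSA-1 and 1892, 1739 and 1804 in U2-OS. The arrays did not overlap (log2 difference -3.04 ± 0.087). INHBA, the activin A subunit, averaged 40.3 ± 1.58 in SJSA-1 and 453 ± 21.9 in U2-OS, BMP5 8.01 ± 0.349 in SJSA-1 and 207 ± 5.56 in U2-OS, and LTBP2, a latency-associated matrix protein, 45.2 ± 2.33 in SJSA-1 and 749 ± 11.1 in U2-OS. The inhibitor of differentiation genes were split, with ID3 at 2223 in SJSA-1 and 808 in U2-OS and ID4 at 8.94 in SJSA-1 and 138 in U2-OS. Of 15 Hedgehog genes 3 were called lower, a share near the 18.4% called over all genes, and 1 was lower with median-centred arrays and none with the mean of probe sets. The 3 falls were the transcription factors GLI2 at 85.5 in SJSA-1 and 286 in U2-OS and GLI3 at 57.3 in SJSA-1 and 144 in U2-OS, and the receptor and target PTCH1 at 29.1 in SJSA-1 and 80.8 in U2-OS. In the Wnt list 6 of 40 genes were called higher and 4 lower, among them the nuclear effector LEF1, which averaged 21.8 ± 2.71 in SJSA-1 and 135 ± 8.44 in U2-OS. Of 24 Notch genes 2 were called lower and 0 higher (8.33%, against 18.4% over all genes). With median-centred arrays 2 were higher and 1 lower. LFNG, a glycosyltransferase of the receptor, averaged 47.1 ± 3.08 in SJSA-1 and 276 ± 8.59 in U2-OS. RBPJ, the DNA-binding effector, averaged 258 ± 56.9 in SJSA-1 and 627 ± 26.2 in U2-OS.

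Metabolic genes differed in redox and respiration. Of 34 NRF2 target and detoxification genes 12 were called lower in SJSA-1 and 4 higher. SLC7A11, the cystine importer, read 130.1, 97.4 and 100.5 in SJSA-1 and 818, 791 and 811 in U2-OS. NFE2L2, which encodes NRF2, averaged 405 ± 104 in SJSA-1 and 1172 ± 45.8 in U2-OS, and the stress-induced growth inhibitor OSGIN1 17.4 ± 1.81 in SJSA-1 and 158 ± 9.29 in U2-OS. ALDH1A3, which makes retinoic acid, went the other way at 306 in SJSA-1 and 5.63 in U2-OS. With median-centred arrays the split was 8 higher and 6 lower. Of 60 respiratory genes 13 were called higher and 2 lower (25%, against 18.4% over all genes). That split was 22 higher and 0 lower with median-centred arrays, 8 and 3 with ribosomal protein centring and 1 and 32 with spike-in centring. SDHA, the flavoprotein of succinate dehydrogenase, read 1109, 1341 and 1208 in SJSA-1 and 224, 210.1 and 208 in U2-OS. The complex I subunit NDUFA13 averaged 2452 ± 282 in SJSA-1 and 617 ± 10.6 in U2-OS, and NDUFA6, another, 1295 ± 60.8 in SJSA-1 and 2921 ± 21.7 in U2-OS. None of 64 cytosolic ribosomal protein genes was called, with a median of 0.07, since none reached 2-fold. In limma 47 of them passed an unadjusted p of 0.05, and without the fold minimum 27 were called higher and 18 lower. The flat result depended on the scaling. With median-centred arrays 17 were called higher and 0 lower, and with spike-in centring 0 higher and 35 lower.

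The target of the study drug was not called. CDK7, the kinase that THZ2 binds, read 465, 414 and 477 in SJSA-1 and 540.5, 564 and 559.7 in U2-OS. The arrays did not overlap, but the gene was not called (log2 difference -0.29 ± 0.087, limma adjusted p = 0.00966). Of 21 genes of the CDK7 complex and the kinases of the RNA polymerase II tail, 1 was called in each direction. This share of 9.52% lay under the 18.4% over all genes. ERCC2, the TFIIH helicase XPD, averaged 180.2 ± 24.96 in SJSA-1 and 48.99 ± 1.38 in U2-OS, and CDK13, an elongation kinase, 48.5 ± 4.0 in SJSA-1 and 116 ± 3.44 in U2-OS. The log2 difference of CDK13 was -0.99 and missed 2-fold without the SJSA-1 array of replicate 2 or 3. The drug efflux pump ABCB1 averaged 42.6 ± 3.47 in SJSA-1 and 105 ± 4.23 in U2-OS (log2 difference -1.05 ± 0.075). ABCC4, another exporter, averaged 117 ± 31.8 in SJSA-1 and 290.1 ± 11.4 in U2-OS in its brightest probe set. Of the 4 ABCC4 probe sets above the floor, however, 3 were higher in SJSA-1, by up to 0.71 on the log2 scale. ABCB1 and ABCC4 were the only calls among 14 transporters (14.3%, against 18.4% over all genes), and neither was called with median-centred arrays. ABCB1 also missed 2-fold, at -0.98, without the SJSA-1 array of replicate 2. Of 21 BCL2 family genes 2 were called higher and 2 lower, a share of 19% that lay near the 18.4% over all genes. The split was 5 higher and 2 lower with median-centred arrays and 0 and 4 with ribosomal protein centring. The survival genes BCL2A1 (25.3 in SJSA-1 and 185 in U2-OS) and BCL2 (19.5 in SJSA-1 and 65.5 in U2-OS) were lower. The death-promoting BID (442 in SJSA-1 and 211 in U2-OS) and BNIP3 (810.0 in SJSA-1 and 391 in U2-OS) were higher. The log2 difference of BID lay under 2-fold, at 0.91 to 0.99, without replicate 2 or 3 of either line.

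Differences lay together along other chromosomes as well. Windows of 11 neighbouring tested genes with a median difference of at least 2-fold merged into 8 regions higher and 31 lower in SJSA-1. Since the regions were picked by these differences, the high shares called within them follow in part from that choice. Besides the 12q cluster the higher regions included RAP2A to NALCN on chromosome 13, with 7 of 16 genes called higher, led by ZIC2 and ZIC5. KMT5B to LTO1 on chromosome 11 had 7 of 15 called higher, GAL, CPT1A, LRP5 and CCND1 among them. ZMYND11 to PITRM1 on chromosome 10 had 7 of 12. The longest lower region, FERMT2 to SIX6 on chromosome 14, held 37 genes, of which 18 were called lower and none higher. RAB38 to CCDC82 on chromosome 11 held 31 with 16 lower, among them MRE11, a nuclease of DNA break repair, and RBAK to ETV1 on chromosome 7 held 31 with 16 lower and 2 higher. ANKRD13B to SUZ12 on chromosome 17 had 10 of 20 called lower, including NF1, the RAS regulator, and SUZ12, a Polycomb subunit. ARMCX2 to BEX3 on chromosome X had 8 of 15 called lower and 1 higher. The number of regions moved with the scaling, to 3 higher and 52 lower on the deposited scaling and to 34 higher and 8 lower with median-centred arrays.

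The line difference was seen again in arrays that the comparison had not used. The 3 SJSA-1 and 3 U2-OS arrays with 25 nM THZ2, the lowest dose, were normalized and fitted on their own. Of 14856 genes tested 2518 (16.9%) were called, 938 (6.31%) higher in SJSA-1 and 1580 (10.6%) lower. Of the 1041 genes called higher with DMSO 881 were called higher at 25 nM (84.6%), and of the 1702 called lower 1438 were called lower (84.5%). None was called the other way. The 881 and 1438 shared genes made up 93.9% of the 25 nM rises and 91.0% of the 25 nM falls. MDM2 had a log2 difference of 3.20 in these arrays, CDKN2A 4.72, MYC -3.60, MAGEA4 -6.87 and BASP1 7.43. The 25 nM arrays share lines, drug exposure and normalization sets within each line, so they repeat the measurement and do not separate line from normalization.

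**Figure D5:**
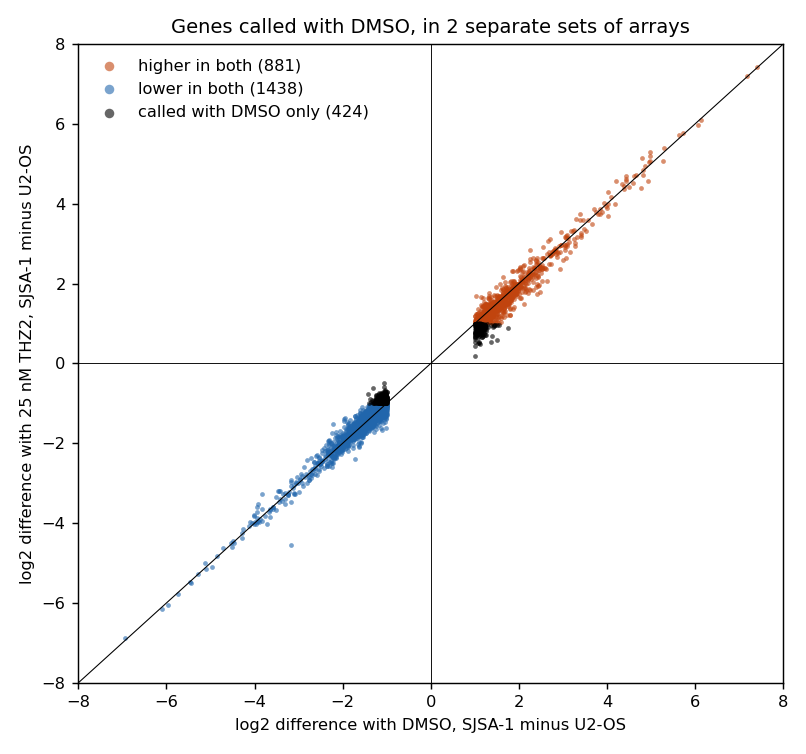
Log2 difference, SJSA-1 minus U2-OS, with 25 nM THZ2 (vertical) and with DMSO (horizontal) for the 2743 genes called with DMSO, from separate sets of 3 arrays per line each; the diagonal marks equal values. The 881 rises and 1438 falls called in both sets lie along the diagonal, and no gene lies in an opposite quadrant.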

How the data were processed

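RNA of 24 samples was measured on PrimeView arrays, and the 6 with DMSO were compared. The authors deposited linear intensity values per probe set. The submitters' processing notes name MAS5 and RMA, but which method made the values, and the genome build, are not given in the sources used here. Deposited medians were 24.8 to 25.5 in SJSA-1 and 34.1 to 34.2 in U2-OS, and log2 values were rounded to hundredths throughout SJSA-1 but in 3.73% to 3.97% of cases in U2-OS, so the deposited lines had been processed apart.

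Of 49372 probe sets, 44988 named 1 gene and 1832 several, and 79 were controls. The platform's symbols were matched to the RefSeq table of GRCh38.p14 (44963 probe sets matched), which also gave the gene order and the promoters. The 6 arrays were quantile normalized together, log2(intensity + 16) was taken, and each gene was represented by its brightest probe set. Genes whose higher group mean reached the floor were tested (14868 of 18132). Differences were tested with limma 3.58.1 in R 4.3.3 (linear model, empirical Bayes with an intensity trend, Benjamini-Hochberg adjustment over all tested genes), checked on simulated data. Folds are ratios of means of log2 values, and "at least" folds set the brighter line against the floor. With 3 arrays per line the smallest two-sided p of an exact permutation test is 0.1, so no such test was used, and the number of arrays limits the precision.

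Named genes were a fixed set of bone, cell cycle and drug target genes, the 15 largest differences each way with arrays apart and agreeing probe sets, up to 6 called genes per list and direction, and region ends with their called genes. Genes, lists and regions were chosen with earlier results of these data known. Alternatives covered scaling, filter, probe sets, pseudocount, call rule, variance model, replicate block and each array left out. TERC was not analysed here, and 1 planned gene is not reported here.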

Additional observations from a re-analysis of the deposited data

How the results depend on the processing

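Calls numbered 2606 to 2867 with each array left out (993 to 1105 higher, 1613 to 1762 lower), against 2743 (1041 and 1702). Ribosomal protein centring gave 4412 (534 higher, 3878 lower), spike-in centring 10859 (183 and 10676), median-centred arrays 2879 (1820 and 1059), the mean of all probe sets 1753 (920 and 833), pseudocount 1 4055 (1436 and 2619), pseudocount 64 1394 (541 and 853), limma's treat test 1679 (667 and 1012) and no fold minimum 11940 (4317 and 7623). The deposited scaling (3098), all 24 arrays (2730), the filter alternatives, the fit without trend and the replicate block stayed within 1.5 times. With the replicate block 2743 genes were called (1041 higher, 1702 lower), since the block leaves the differences as they are and the fold minimum set the calls. Deviations of same-numbered arrays correlated at -0.32, -0.24 and 0.037, and those of differently numbered arrays at -0.14 to 0.31. Deviations from a mean of 3 arrays depend on each other, so these values cannot show whether the numbers pair the arrays. Of the 2743 genes, 2534 were called the same way on the deposited scaling, 2091 under median, 2236 under ribosomal and 1885 under spike-in centring, and 1540 with the mean of probe sets. Against the median difference of -0.18, the median moved by -0.19, 0.12, -0.41, -1.05 and 0.11 in these settings, to -0.37, -0.06, -0.59, -1.23 and -0.07. Regions of neighbouring genes numbered 8 higher and 31 lower. Under other scalings, added after seeing the data, they numbered 3 and 52 on the deposited scaling, 34 and 8 under median centring, 2 and 143 when centred on ribosomal protein genes and 1 and 135 when centred on spike-ins.

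The log2 difference of some genes changed sign. With the mean of probe sets it was -0.0278 for HMGA2, -0.44 for HLA-C, 0.10 for ABCC4, 0.15 for CDKN1A, 0.27 for KMT5B and 0.53 for RB1. With median-centred arrays it was 0.18 for CDK7 and 0.28 for CDKN1A. With ribosomal centring it was -0.12 for FERMT2 and -0.21 for TERT. With spike-in centring it was -0.0014 for CD14, -0.0185 for EGFR, -0.0541 for ZMYND11, -0.10 for HOXB5, -0.13 for LOX, -0.25 for CCND1, -0.30 for BNIP3, -0.33 for BID, -0.42 for INHBE, -0.54 for LTO1, -0.57 for HMGA2, -0.95 for TERT and -1.13 for FERMT2. The cause was not tested. Dim genes near the floor limit what these arrays can resolve, and no detection calls were used.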

Other observations

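Called genes were unevenly spread over the chromosomes, given here as a description without a test. On chromosome 4, 100 of 525 tested genes were called lower in SJSA-1 and 34 higher. Chromosome 14 had 81 of 467 lower (17.3%) and 24 higher, and chromosome 7 had 114 of 664 lower (17.2%) and 40 higher. Chromosome 15 had 50 of 468 higher (10.7%) and 31 lower, and chromosome 20 had 40 of 435 higher and 27 lower. Shares of rises were larger on chromosome 21, with 24 of 176 higher (13.6%) and 22 lower. On chromosome 13, 28 of 240 were higher (11.7%) and 28 lower. Chromosome 20 was the only one with a median difference above 0, at 0.05. Over all genes 7.0% were higher and 11.4% lower, and the balance moved with the scaling.

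Some genes were called from 1 probe set while another probe set of the same gene did not share the difference. They were chosen after their values were seen. UBE3B, a ubiquitin ligase gene, averaged 3561 in SJSA-1 and 34.7 in U2-OS in 1 probe set, a log2 difference of 6.14, while its 4 others above the floor had differences between -0.17 and 0.59. HLA-C, 1 of the 15 rises of the interferon list, averaged 2082 in SJSA-1 and 578.5 in U2-OS in its brightest probe set. Another HLA-C probe set averaged 26.3 in SJSA-1 and 491 in U2-OS, a difference of -3.59, and the third had a difference of 0.46. HLA genes are close relatives that vary between people, and neither cross-hybridization nor allele differences were tested. For CCND2, 2 probe sets had differences of -6.10 and -4.45 and the third -0.36. For MEST, 5 of 6 probe sets lay between 3.59 and 4.79 and 1 at 0.36. CYP1B1, an oestrogen and toxin hydroxylase, had 4 probe sets between 3.03 and 4.51 and 1 at -0.21.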
